A study of Mus musculus with 55 samples.

Results

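The genes described here are 10 members of iron handling in mouse liver: the hepcidin genes Hamp and Hamp2, the plasma iron proteins Trf (transferrin) and Cp (ceruloplasmin), the transferrin receptors Tfrc and Tfr2, the iron transporters Slc40a1 (ferroportin) and Slc11a1, the ferritin heavy chain Fth1, and the heme-degrading enzyme Hmox1. They were taken by symbol from a table of 24478 gene symbols, and all 10 were found. Where a symbol has several transcript rows, the one with the largest average across the 55 libraries stands for it, so no measured difference entered the choice of genes. The values are FPKM, a read abundance scaled to transcript length and to library size, which allows levels of different genes to be compared.

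RNA was sequenced from 10 populations sorted by FACS from livers of C57B/L6 mice, with 27 libraries of normal liver and 28 of liver regrowing after partial hepatectomy (PH), the surgical removal of part of the organ. The populations were hepatocytes (HC, 4 normal and 4 PH libraries), Kupffer cells (KC, 2 and 3), liver sinusoidal endothelial cells (LSEC, 3 and 5), endothelial cells (EC, 2 and 3), hepatic stellate cells (HSC, 2 and 3), Thy1 cells (2 and 2), blood cells (2 and 2), clonal biliary epithelial cells (cBEC, 4 and 2), biliary epithelial cells (BEC, 4 and 2) and non progenitor ducts (NPD, 2 and 2). The labels give no age, sex, sorting gate, time after surgery or sequencing batch, and no genotype other than the strain. They do not say whether libraries of a group came from separate animals, so p-values measure the spread between these libraries, which may be technical.

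The liver makes most of the proteins that set body iron. Hepatocytes secrete hepcidin, a peptide hormone that binds the iron exporter ferroportin and causes its degradation, which lowers the release of iron into plasma. Hepcidin transcription in hepatocytes is raised by bone morphogenetic proteins (BMP), which come largely from the sinusoidal endothelium, and by interleukin-6 through STAT3. Kupffer cells, the macrophages of the liver sinusoids, take up aged red cells, open the heme ring with heme oxygenase and return the iron through ferroportin, while transferrin carries it in plasma and ferritin stores it in cells.

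Mice have a pair of neighbouring hepcidin genes, and their upstream sequences are shown because these genes, as described below, differed in their levels after PH. The 250 bases before each transcription start are from RefSeq (GRCm38.p6, minus strand), at chr7:30944030-30944279 for Hamp and chr7:30924182-30924431 for Hamp2. Capitals mark exact matches to 3 motifs searched on both strands, in this order along Hamp: GGCGCC (the core of a BMP-responsive element), TTCTTGGAA (a STAT site) and TGAGTCA (an AP-1 site).

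Hamp: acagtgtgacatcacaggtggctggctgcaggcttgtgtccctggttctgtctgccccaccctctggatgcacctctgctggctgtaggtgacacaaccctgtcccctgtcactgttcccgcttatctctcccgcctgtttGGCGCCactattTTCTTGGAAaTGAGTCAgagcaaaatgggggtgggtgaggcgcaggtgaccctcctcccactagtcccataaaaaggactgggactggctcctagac

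Hamp2: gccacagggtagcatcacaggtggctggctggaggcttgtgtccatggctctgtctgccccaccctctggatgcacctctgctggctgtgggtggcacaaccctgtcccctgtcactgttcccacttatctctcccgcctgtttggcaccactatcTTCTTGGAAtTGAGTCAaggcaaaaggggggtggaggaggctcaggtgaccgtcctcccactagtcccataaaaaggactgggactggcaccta

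Aligned end to end, the windows share 227 of 247 aligned bases (91.9%). The STAT match begins 97 bases before the start of Hamp and 94 before that of Hamp2, and the AP-1 match 87 and 84 bases before. GGCGCC lies 109 bases before the start of Hamp. The aligned bases of Hamp2 read GGCACC, a substitution written G4A, counted from the first base of the element with the base of Hamp first. Among 32851 RefSeq promoters searched over the same 250-base window, GGCGCC was found in 9.59%, TTCTTGGAA in 0.365% and TGAGTCA in 4.46%. Of the 7 members with an entry in the promoter table, Tfrc also had GGCGCC in 1 of its windows, and the others had none of these motifs. A match is a run of letters and does not show that a factor binds there.

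A second kind of regulatory sequence in this set is the iron-responsive element, an RNA hairpin bound by iron regulatory proteins when cellular iron is low. In the 3′ UTR of Tfrc such elements protect the mRNA, and in the 5′ UTR of Fth1 and Slc40a1 they block translation, an effect that an mRNA measurement does not record. The elements below were found in GENCODE transcripts (GRCm38) with a 27-base pattern: a bulged C, a paired upper stem of 5 bases, the loop CAGTGN, and at least 4 of 5 pairs in the lower stem. Capitals mark the bulged C and the loop, and T stands for U.

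Tfrc, 3′ UTR, chr16:32631220-32631246, plus strand: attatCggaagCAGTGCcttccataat

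Tfrc, 3′ UTR, chr16:32631599-32631625, plus strand: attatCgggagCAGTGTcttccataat

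Tfrc, 3′ UTR, chr16:32631664-32631690, plus strand: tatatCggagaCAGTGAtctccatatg

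Tfrc, 3′ UTR, chr16:32631711-32631737, plus strand: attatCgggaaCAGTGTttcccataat

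Slc40a1, 5′ UTR, chr1:45925466-45925492, minus strand: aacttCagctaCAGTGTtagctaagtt

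Fth1, 5′ UTR, chr19:9982733-9982759, plus strand: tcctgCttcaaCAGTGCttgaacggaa

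This pattern was found in 17 of 21877 protein-coding genes (0.0777%), and 3 of the 10 members were among them.

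A property of the table limits what can be said of hepatocyte genes in the other populations. There were 43 genes at 1000 FPKM or more in every HC library, and each of the 47 other libraries lists between 62.8% and 83.7% of them at exactly 0. In 37 of those 47 libraries all 6 hepatocyte markers examined (Alb, Apoa1, Ttr, Fgb, Serpina1c and Cyp2e1) are listed at 0. An exact 0 outside HC can thus be a missing estimate rather than an absent transcript, and such values are given below as listed at 0, library by library. How these zeros arose is not given in the sources used here, and values above 0 of such genes outside HC may be affected as well. The markers of the other labelled populations were present in them, but in PH blood cells the Kupffer cell markers stood far above the lymphocyte markers, with values given beside the results for blood cells. The sum of FPKM per library ran from 624726 to 1203197, and read depth cannot be derived from it. Each HC library summed to 960918 or more and each other library to 848630 or less. HC values also carry 2 decimals, unlike the others. The part of these differences in comparisons of HC with other populations was not tested.

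In normal liver the 10 genes differed in where they were highest. Hamp, Hamp2, Trf and Tfr2 were highest in HC, Slc40a1, Slc11a1 and Hmox1 in KC, Tfrc in blood cells, and Cp in the biliary cells. Fth1 was abundant in every population, with its highest mean in KC. All 10 differed between the 10 populations of normal liver (limma, moderated F test, Benjamini-Hochberg adjusted p under 0.05), as did 93.3% of all genes tested, and all 10 differed between the populations after PH, where 90.1% of all genes did. The plot of levels by population shows each library.

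**Figure D1:**
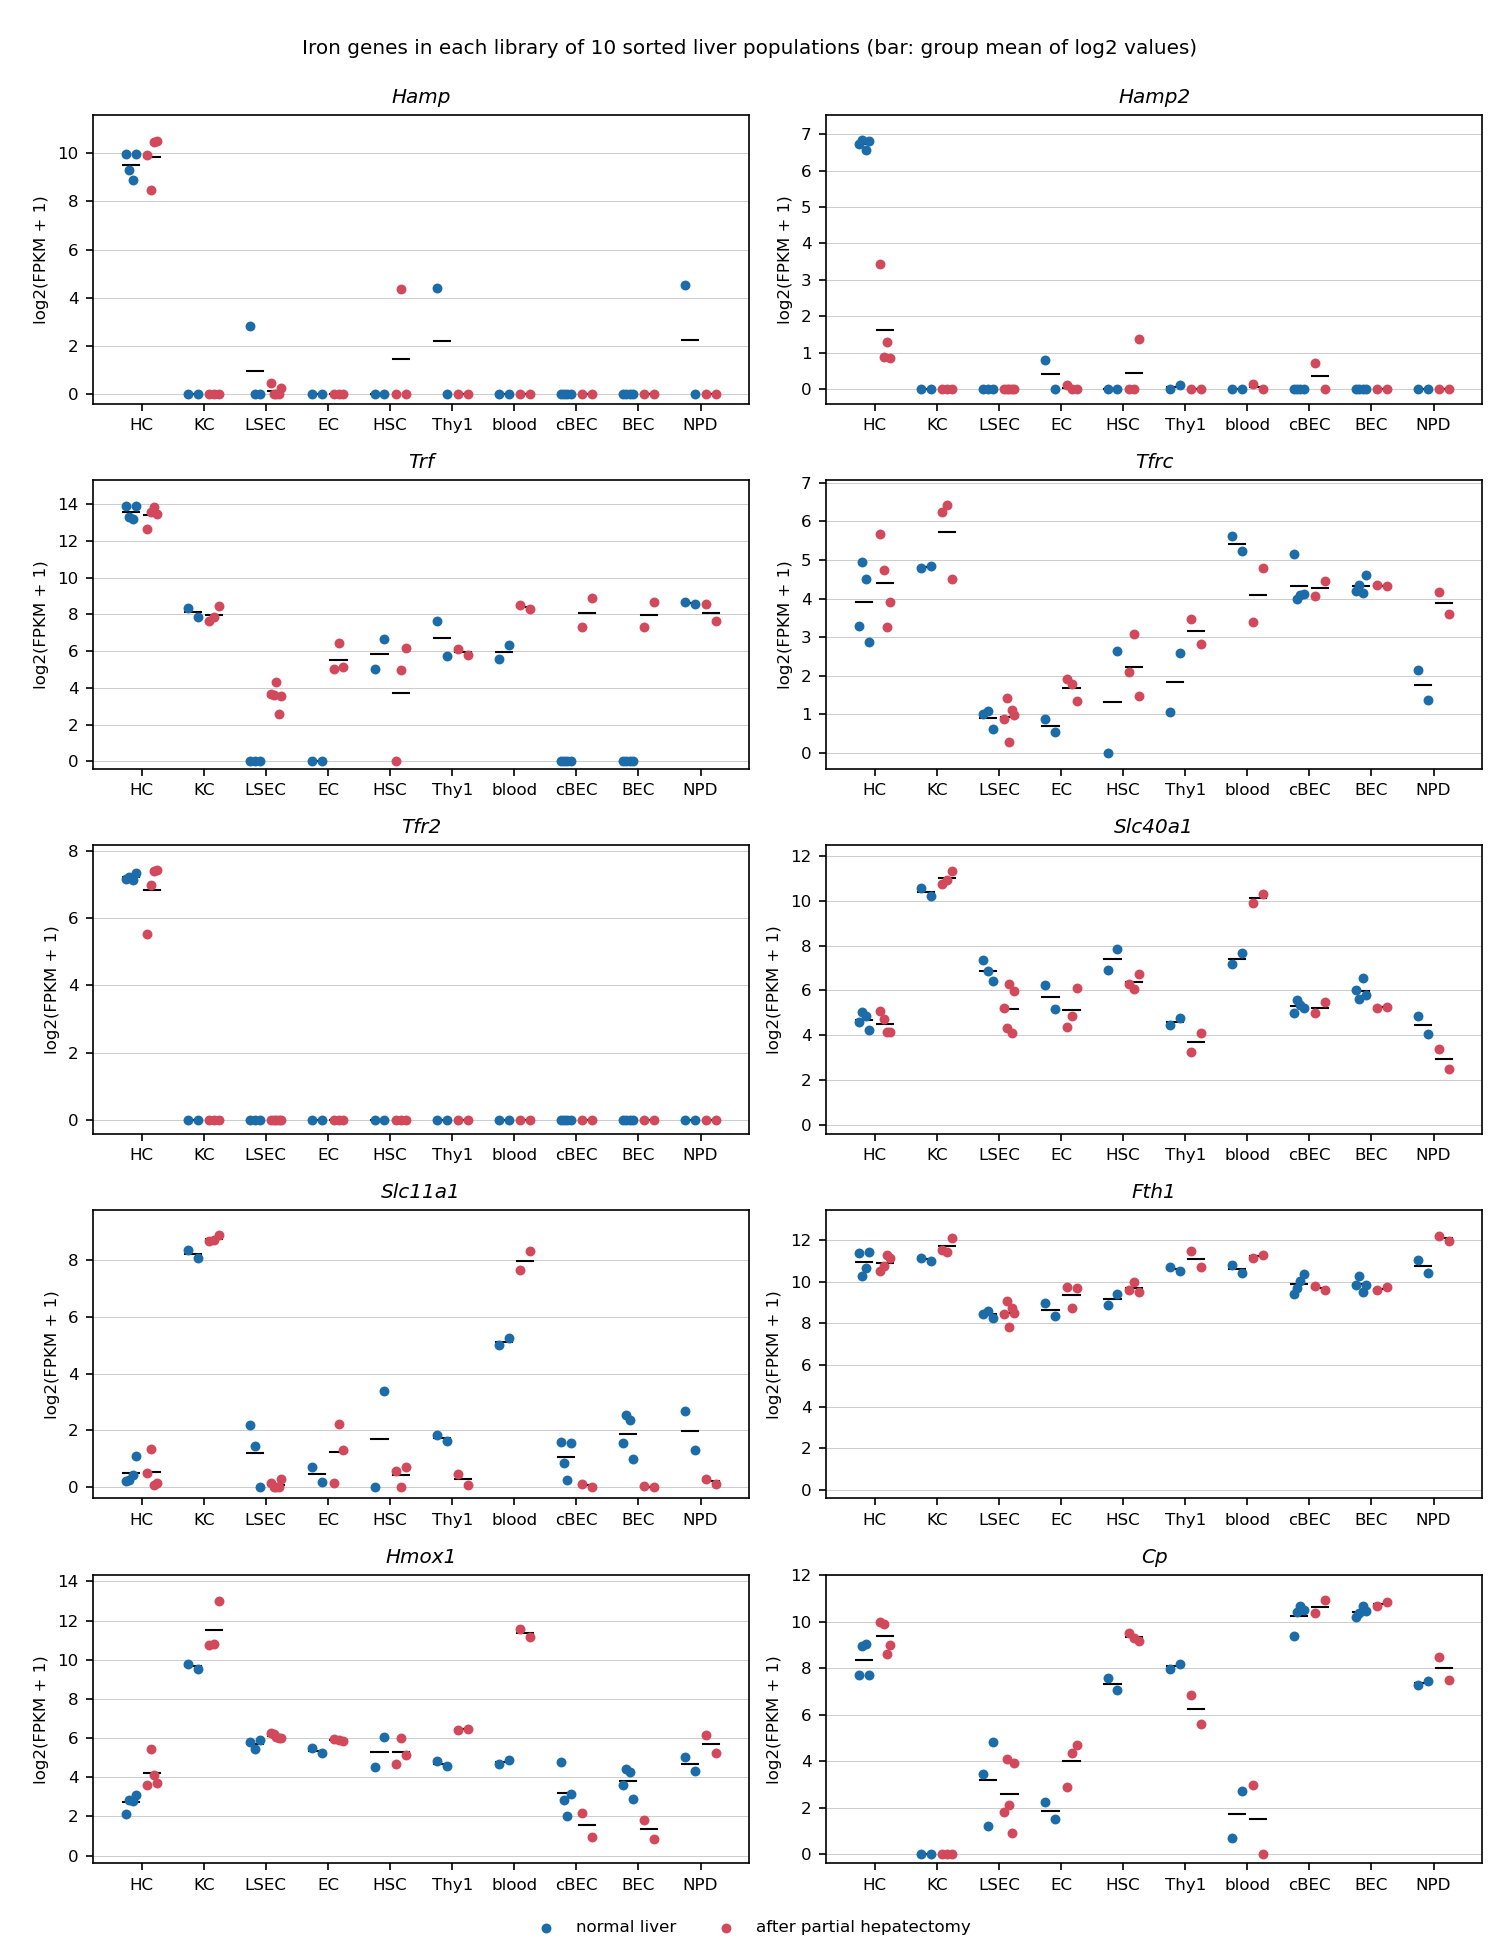
Level of each of the 10 genes in every library, as log2(FPKM + 1), by sorted population (x axis), with normal liver in blue, liver after partial hepatectomy in red and a bar at the group mean of the log2 values. Hamp2 and Tfr2 are at or near 0 outside hepatocytes and Hamp is at 0 in 41 of 47 other libraries. In normal liver Slc40a1, Slc11a1 and Hmox1 peak in Kupffer cells. All 3 are higher in blood cells after partial hepatectomy, where Hmox1 overlaps with its level in Kupffer cells.

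Against LSEC in normal liver, 7 of the 10 genes differed in KC, where 19.5% of all genes tested did. Trf, Tfrc, Slc40a1, Slc11a1, Fth1 and Hmox1 were higher in KC, by between 2.63 and 8.10 on the log2(FPKM + 1) scale (10.4% of all genes were higher), and Cp was lower, with a difference of -3.17 (9.1% of all genes were lower; SE 0.71, adjusted p = 0.00226). Of these, Trf was listed at 0 in all 3 normal LSEC libraries and Cp in both normal KC libraries. Between KC and HC, 8 of the 10 differed (61.9% of all genes tested). Slc40a1, Slc11a1 and Hmox1 were higher in KC by 5.74, 7.70 and 6.95 on the log2 scale. Hamp, Hamp2, Trf, Tfr2 and Cp were higher in HC, and all of these but Trf are listed at 0 in the normal KC libraries. Tfrc and Fth1 did not pass, with KC above HC by 0.91 (SE 0.59, adjusted p = 0.195) and 0.16 (SE 0.32, adjusted p = 0.741). Between HC and LSEC, 9 of the 10 differed (66.1% of all genes tested), with Slc40a1 and Hmox1 the members that were lower in HC, with differences of -2.21 and -3.01 on the log2 scale. Of those higher in HC, Hamp2, Trf and Tfr2 are listed at 0 in all 3 normal LSEC libraries and Hamp in 2 of them. Hamp2 and Tfr2 passed the filter on low values only through HC.

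The hepcidin genes were read almost only in hepatocytes. Hamp (mm9 chr7:31727388-31729048, minus strand), which encodes the iron hormone, was at 991, 634, 467 and 1001 FPKM in the normal HC libraries and at 974, 359, 1414 and 1476 FPKM in the PH libraries. The groups overlap, and the difference did not pass the test (0.33 on the log2 scale, SE 0.46, adjusted p = 0.736). Outside HC it is listed at 0 in 41 of 47 libraries. The highest of the remaining 6 were 21.8 FPKM in normal NPD library 1, 19.99 in normal Thy1 library 1, 19.7 in PH HSC library 2 and 6.01 in normal LSEC library 1, while the other libraries of those groups are at 0.

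Hamp2 (mm9 chr7:31707391-31709200, minus strand), the neighbouring copy whose role in iron balance is less clear, was at 105, 113, 93.1 and 112 FPKM in normal HC. After PH it was at 9.91, 0.83, 1.47 and 0.79 FPKM. Every PH library lay far below every normal library, and Hamp2 fell by 5.12 on the log2 scale (SE 0.51, adjusted p = 0.000535). The group means were 106 ± 9.15 FPKM (SD, n = 4) in normal HC and 3.25 ± 4.45 FPKM (SD, n = 4) in PH HC. Hamp2 was 1 of the 9 members tested in HC, and the only one of them to pass, where 6.19% of all genes tested did.

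The copies thus parted within the same libraries. The log2 level of Hamp minus that of Hamp2 was 2.79 ± 0.47 (SD, n = 4) in normal HC and 8.24 ± 1.46 (SD, n = 4) in PH HC. This gap was 5.45 wider after PH, and an exact permutation test over the 70 arrangements gave p = 0.0286 (two-sided), the smallest that 4 against 4 libraries allow. That comparison was chosen after the values were seen. Because the genes are close in sequence, how reads were split between them could bear on both values, which was not tested.

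**Figure D2:**
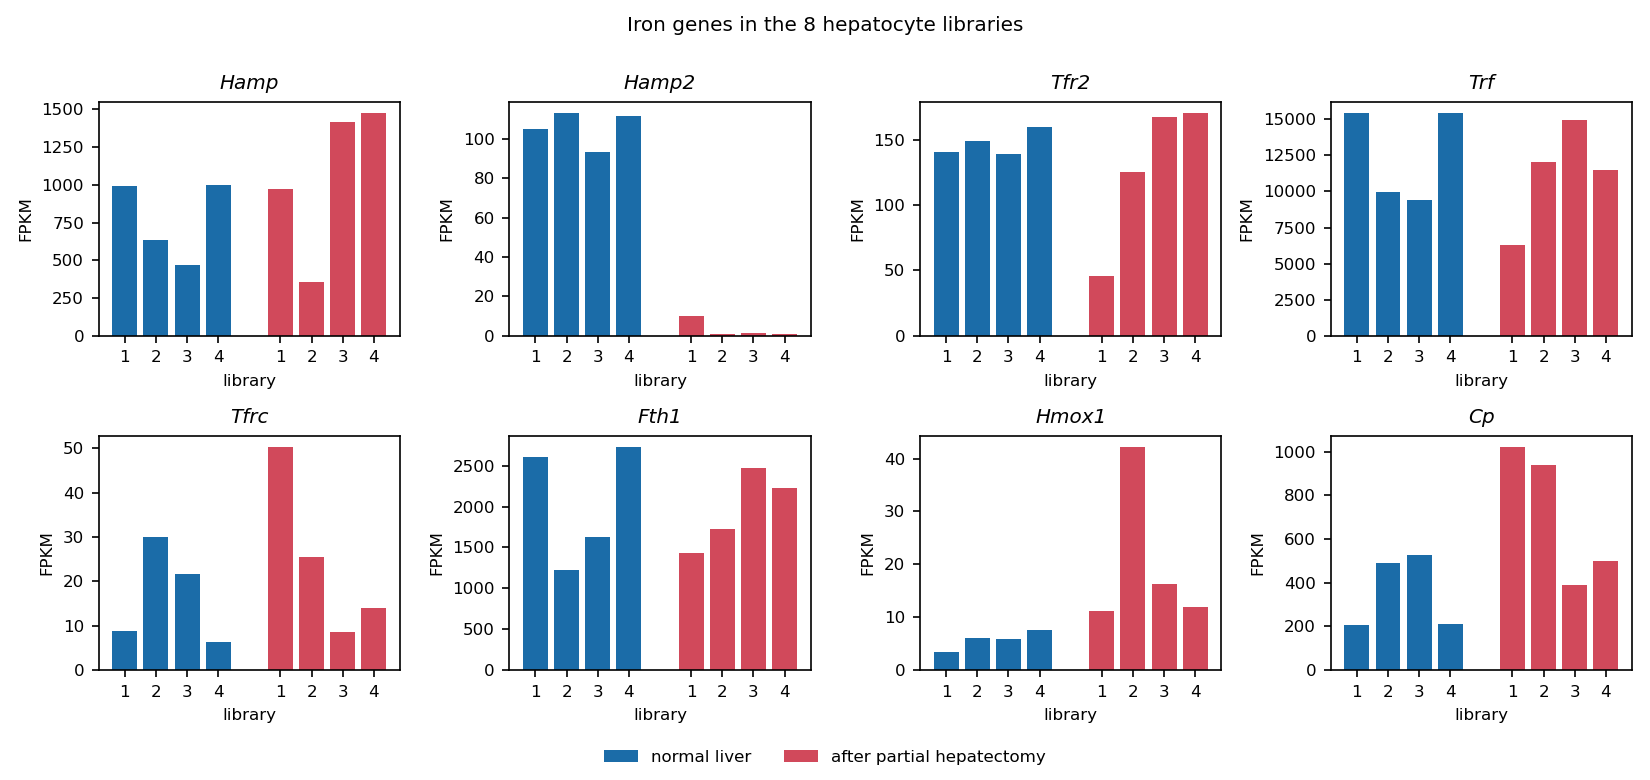
FPKM (y axes, starting at 0) of 8 of the genes in the 4 normal (blue) and 4 PH (red) hepatocyte libraries, one bar per library. Hamp2 stands between 93.1 and 113 FPKM in normal libraries and at 9.91 or less after PH, while the groups overlap for Hamp, Tfr2, Trf, Tfrc, Fth1 and Cp.

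Transferrin was by far the most abundant member in hepatocytes. Trf (mm9 chr9:103111206-103132616, minus strand) was at 15409.9, 9983, 9399.5 and 15451 FPKM in normal HC and at 6315, 12069, 14974 and 11456 FPKM in PH HC. The groups overlap, and the change of -0.19 on the log2 scale (SE 0.31, adjusted p = 0.777) did not pass. In KC it was at 323 and 233 FPKM in normal and 201, 234 and 345 FPKM in PH libraries, which overlap as well.

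In 5 other populations Trf passed as higher after PH, in LSEC, EC, cBEC and BEC against normal libraries that are all listed at 0. In LSEC it is listed at 0 in all 3 normal libraries and stood at 11.5, 11.3, 19.2, 4.84 and 10.9 FPKM in the PH libraries (adjusted p = 0.00123), in a comparison where 8.46% of all genes passed and Trf was the only 1 of 6 tested members to do so. In EC it is listed at 0 in both normal libraries and stood at 31.3, 85.3 and 33.8 FPKM after PH (adjusted p = 0.0495). Trf was the only 1 of 7 tested members to pass in EC, against 0.0249% of all genes. Without normal EC library 1 its adjusted p was 0.512, without normal library 2 it was 0.073, without PH library 1 it was 0.0827 and without PH library 3 it was 0.0826.

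The biliary populations showed the same switch from a listed 0. In cBEC all 4 normal libraries are at 0 and the PH libraries were at 156 and 470.0 FPKM (adjusted p = 0.000212). Trf was the only 1 of 7 tested members to pass there, against 0.0681% of all genes. In BEC all 4 normal libraries are at 0 and the PH libraries were at 157 and 401 FPKM (adjusted p = 9.44e-06), in a comparison where 2 of 7 tested members and 1.81% of all genes passed. In blood cells Trf went from 46.7 and 79.3 FPKM to 365 and 315 FPKM, a rise of 2.46 on the log2 scale (SE 0.29, adjusted p = 0.00271). No fold is given against a listed 0, and the fitted differences there depend on the pseudocount: 3.54 in LSEC and 5.52 in EC became 6.74 and 8.81 with a pseudocount of 0.1.

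In LSEC, EC, cBEC and BEC Trf passed the filter on low values only through the PH libraries, and its normal values have no spread. The adjusted p-values there cannot tell a rise from a missing estimate in the normal libraries. These zeros need the caution given above, since Trf is 1 of the 43 genes abundant in every HC library. Among those 43 genes, 2 switched from 0 in all normal to above 0 in all PH libraries of blood cells. Another 2 did the reverse there, as did 1 gene in BEC and 1 in HSC, and none of these was Trf. In LSEC Trf was the only one of the 43 at 0 in every normal and above 0 in every PH library. The same held for Trf in EC, cBEC and BEC.  In NPD (414 and 379 FPKM, then 378 and 197), Thy1 cells (199 and 52.2, then 69.4 and 54.4) and HSC (31.6 and 102, then 0, 30.6 and 70.9) it did not pass the test.

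Cp (mm9 chr3:19857054-19892998, plus strand), a copper-containing ferroxidase that oxidises iron for loading onto transferrin, was highest in the biliary cells. Normal BEC had 1161, 1306, 1621 and 1407 FPKM and normal cBEC 670.2, 1358, 1611 and 1463 FPKM. These groups overlap, and both lay above normal HC, at 208, 492, 527 and 209 FPKM. In PH HC it was at 1021, 938, 389 and 501 FPKM, a difference of 1.01 on the log2 scale that did not pass (SE 0.43, adjusted p = 0.204). In HSC it was at 189 and 133 FPKM in normal and 719, 619 and 579.7 FPKM in PH libraries. The HSC groups do not overlap, and the PH mean was 3.97 times the normal mean, yet the adjusted p was 0.14. In Thy1 cells it was lower after PH without overlap, at 249 and 289 FPKM and then 115 and 47.8 FPKM, and did not pass. The duct markers in Thy1 cells summed to 858 and 5097 FPKM and then 1334 and 851 FPKM, and their part was not tested. Cp is listed at 0 in all 5 KC libraries.

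Tfrc (mm9 chr16:32608982-32632880, plus strand) is the receptor through which most cells take up transferrin-bound iron, and dividing cells are known to express it. In normal liver it was highest in blood cells, at 48.0 and 36.5 FPKM, above KC at 26.9 and 27.5 FPKM and far above LSEC, at 1.03, 1.14 and 0.542 FPKM. In the order KC, cBEC, BEC and HC, the libraries of each population overlapped those of the next. After PH it was at 74.5, 84.7 and 21.6 FPKM in KC. Libraries 1 and 2 lay above both normal ones and library 3 below them, and the difference of 0.90 on the log2 scale had an adjusted p of 0.28. Without PH library 3 it was 1.51 with an adjusted p of 0.000287.

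In NPD Tfrc rose, from 3.42 and 1.57 FPKM to 17 and 11.2 FPKM, by 2.14 on the log2 scale (SE 0.36, adjusted p = 0.0238). It was 1 of 2 members of the 7 tested that passed in NPD, where 15.2% of all genes did. In HC the libraries were scattered, at 8.86, 30.0, 21.7 and 6.3 FPKM in normal and 50.3, 25.6, 8.59 and 14.1 FPKM in PH liver (0.49 on the log2 scale, SE 0.58, adjusted p = 0.687). In cBEC normal library 1 was at 34.9 FPKM, while the other 3 were at 14.8, 16 and 16.2 FPKM.

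Tfr2 (mm9 chr5:138011068-138029309, plus strand), the second transferrin receptor, acts in hepatocytes as a sensor of iron-loaded transferrin upstream of hepcidin. It was at 140.4, 149, 139 and 159.7 FPKM in normal HC and is listed at 0 in all 47 other libraries. The PH HC libraries were at 45.4, 125, 168 and 170.5 FPKM. Library 1 was low and the other 3 were near the normal range, and the difference of -0.37 on the log2 scale (SE 0.38, adjusted p = 0.631) did not pass.

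Some libraries of HC stood apart across several members. Normal HC libraries 1 and 4 were above libraries 2 and 3 for Hamp, Trf and Fth1, and below them for Tfrc, Cp and Slc40a1. The same libraries had higher sums of FPKM, 1159133 and 1203197, against 967587 and 960918 in libraries 2 and 3. PH HC library 1 had the lowest Trf, Tfr2 and Fth1 of its group and the highest Tfrc and Cp. The labels name no batch for these libraries, and their part in the results was not tested. Hamp2 did not share this split in normal HC, and it passed the test with each HC library left out in turn (adjusted p from 1.42e-06 to 0.00319).

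The recycling genes Slc40a1, Slc11a1 and Hmox1 were Kupffer cell genes in normal liver. Slc40a1 (mm9 chr1:45964915-45982439, minus strand), the only known cellular iron exporter and the target of hepcidin, was at 1540.3 and 1202 FPKM in normal KC. The next populations, HSC (120.4 and 228 FPKM), blood cells (142 and 205 FPKM) and LSEC (161, 117 and 83.3 FPKM), overlapped each other. Slc11a1 (mm9 chr1:74421777-74432625, plus strand), a metal transporter of phagosomes for which this strain is known to carry a loss-of-function allele, was at 323 and 268 FPKM in KC and 30.8 and 37.2 FPKM in blood cells. Hmox1 (mm9 chr8:77617517-77624492, plus strand), the inducible heme oxygenase, was at 892 and 737 FPKM in KC, against 54.9, 42.8 and 58.8 FPKM in LSEC and 3.42 to 7.6 FPKM in HC.

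In KC after PH these genes stood higher in every library, but only Slc11a1 passed. It was at 405, 414 and 467 FPKM and rose by 0.54 on the log2 scale (SE 0.13, adjusted p = 0.0286). This was 1 of 6 tested members, where 36.8% of all genes passed. Without normal KC library 1 its adjusted p was 0.0722, without normal library 2 it was 0.158, and without PH library 1 or 2 it was 0.0758 or 0.0738. Slc40a1 was at 1709, 1929 and 2617 FPKM after PH, above both normal libraries by 0.59 on the log2 scale (SE 0.22, adjusted p = 0.0872).

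Hmox1 in PH KC was at 1756, 1821 and 8343 FPKM. Library 3 was far above the other libraries, and the difference of 1.88 on the log2 scale (SE 0.71) had an adjusted p of 0.0922. Without that library it was 1.14 with an adjusted p of 0.000867, and 4 members passed: Fth1, Hmox1, Slc11a1 and Tfrc. The 6 Kupffer cell markers summed to 13684 and 12259 FPKM in normal and 21158, 22365 and 20536 FPKM in PH KC. The 5 sinusoidal endothelial markers summed to 3014 and 4187 FPKM in normal KC and to 289, 261 and 460.2 FPKM in PH KC. The part of these markers in the KC results was not tested.

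The strongest change of a recycling gene was in blood cells. Hmox1 went from 24.4 and 29.0 FPKM in normal to 3077 and 2285 FPKM in PH blood cells, a mean ratio of 100.5, and rose by 6.59 on the log2 scale (SE 0.22, adjusted p = 0.000766). Slc11a1 went from 30.8 and 37.2 FPKM to 197 and 317 FPKM and rose by 2.85 on the log2 scale (SE 0.27, adjusted p = 0.00175). Slc40a1 went from 142 and 205 FPKM to 957 and 1268 FPKM and rose by 2.68 on the log2 scale (SE 0.27, adjusted p = 0.0019). With Trf, 4 of the 7 tested members passed, against 64% of all genes, so the share in either direction is near the background. All 4 were higher, where 24.3% of all genes were higher and 39.7% lower.

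The markers of cell types moved in the same libraries. The 6 Kupffer cell markers summed to 658 and 956 FPKM in normal and to 6998 and 12423 FPKM in PH blood cells, and the 6 lymphocyte markers to 2511 and 2559.6 FPKM and then 29.7 and 77.2 FPKM. Neutrophil and monocyte markers summed to 4605 and 3829 FPKM and then 2206 and 905 FPKM. The 5 sinusoidal endothelial markers summed to between 672 and 774 FPKM in normal and between 2255 and 5160 FPKM in PH blood cells. The 5 endothelial markers (Pecam1, Cdh5, Vwf, Kdr and Tie1) summed to between 230 and 242 FPKM and then between 780 and 1483 FPKM. More cells of a type and more RNA per cell cannot be told apart in such bulk libraries, and the part of these markers in the rises was not tested. After PH the sum of Kupffer markers was higher in blood library 2, which also had more Slc40a1 and Slc11a1, whereas Hmox1 was higher in library 1. Without normal blood library 1 the adjusted p was 0.0551 for Slc11a1 and 0.0535 for Slc40a1, while Hmox1 and Trf still passed.

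**Figure D3:**
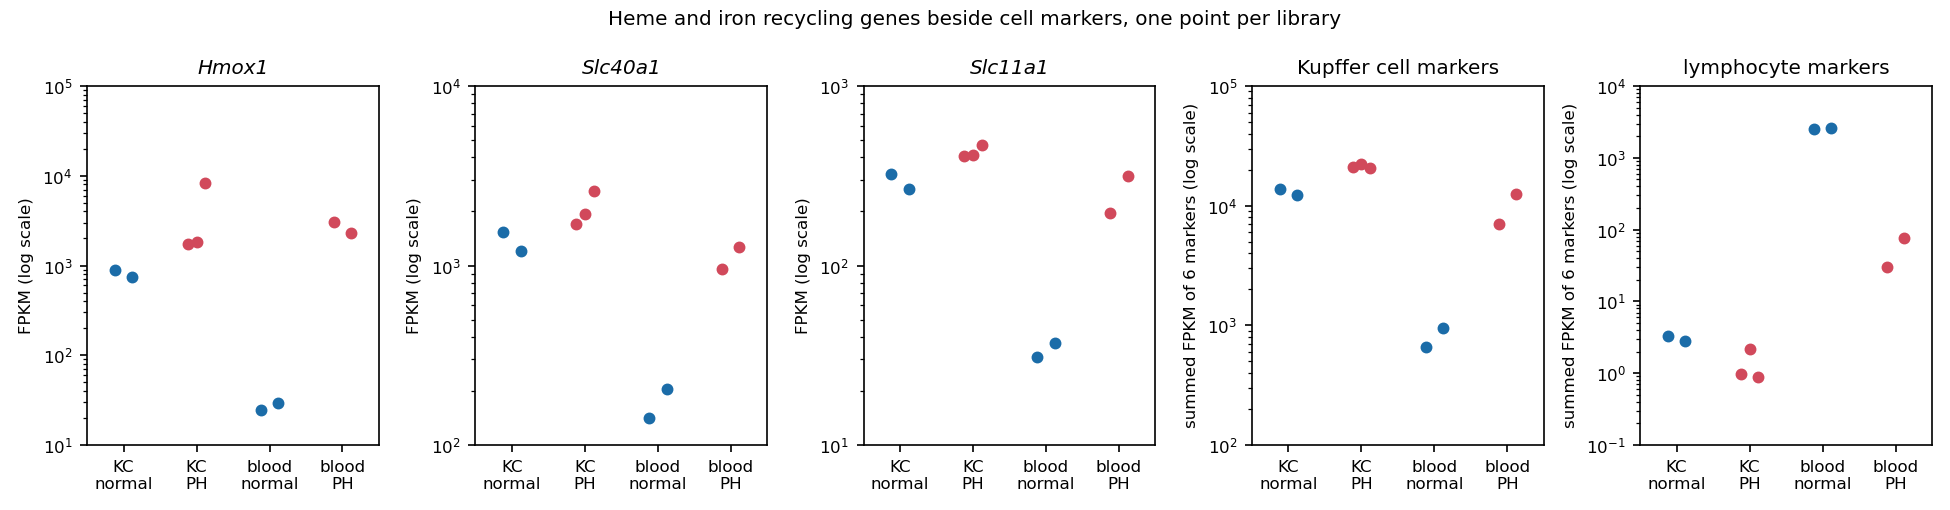
FPKM of Hmox1, Slc40a1 and Slc11a1 and the summed FPKM of 6 Kupffer cell and 6 lymphocyte markers (log y axes), one point per library, in Kupffer cells (KC) and blood cells of normal liver (blue) and after PH (red). In blood cells Hmox1 goes from 29 FPKM or less to 2285 or more, Kupffer cell markers from 956 or less to 6998 or more, and lymphocyte markers from 2511 or more to 77.2 or less.

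In LSEC and HSC the iron exporter stood lower after PH without passing. Slc40a1 in LSEC was at 35.6, 18.6, 77.9, 16.1 and 62.7 FPKM after PH, each below the lowest normal library, and the difference of -1.70 on the log2 scale (SE 0.52) had an adjusted p of 0.0776. Without PH LSEC library 3 the adjusted p was 0.0324. In LSEC the 5 sinusoidal markers ran from 4461 to 8956 FPKM in normal and from 1313 to 4969 FPKM in PH libraries, and their part was not tested. In EC, at 75.4 and 34.6 FPKM and then 19.7, 27.9 and 67.5 FPKM, its libraries overlapped (-0.60 on the log2 scale, SE 0.56, adjusted p = 0.751). In HSC Slc40a1 was at 120.4 and 228 FPKM and then at 75.7, 66.0 and 105 FPKM. The Kupffer cell markers in HSC summed to 57.1 and 739.7 FPKM and then 35.9, 0.515 and 40.3 FPKM, and their part was not tested. No member passed in HSC, where 6 were tested and 2 had an unadjusted p under 0.05, and 0.00853% of all genes passed.

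Hmox1 fell in BEC, from 11.3, 20.8, 18.5 and 6.39 FPKM to 2.57 and 0.807 FPKM, by 2.47 on the log2 scale (SE 0.46, adjusted p = 0.0389). Trf was the member that passed as higher there, from a listed 0 (0.233% of all genes rose). All PH values of Hmox1 lay below all normal ones. The 6 Kupffer cell markers in the same order of libraries summed to 164, 254, 352 and 128 FPKM in normal and 50.4 and 43.8 FPKM in PH BEC. Clec4f, Vsig4 and Cd5l, which define Kupffer cells, had means of 51.8, 23.3 and 50.9 FPKM in normal BEC and 0.481, 0.386 and 0.802 FPKM in PH BEC. Timd4 and Adgre1 had means of 4.03 and 9.28 FPKM and are listed at 0 after PH, while Csf1r went only from 84.9 to 45.4 FPKM. Their part in the fall was not tested. Without normal BEC library 1, 2 or 3 the adjusted p was 0.0883, 0.0612 or 0.0544, and without PH library 1 or 2 it was 0.135 or 0.368.

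In HC Hmox1 was low but higher after PH in every library, at 3.42, 6.09, 5.83 and 7.6 FPKM and then 11.2, 42.2, 16.2 and 12 FPKM. This difference of 1.5 on the log2 scale (SE 0.40) had an adjusted p of 0.0562. The 6 Kupffer cell markers summed to between 0.26 and 6.1 FPKM in normal HC. In PH HC they summed to between 2.42 and 82.8 FPKM, and their part was not tested. In Thy1 cells Hmox1 was at 27.3 and 22.9 FPKM and then at 83.5 and 88.3 FPKM, without overlap and with an adjusted p of 0.13. No member passed in Thy1 cells, where 7 were tested and 4 had an unadjusted p under 0.05, and 0.00747% of all genes passed.

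Ferritin heavy chain was high everywhere. Fth1 (mm9 chr19:10057136-10059601, plus strand), which stores iron after oxidising it, ranged over the group means of normal liver from 349 ± 39.3 FPKM (SD, n = 3) in LSEC to 2162 ± 159 FPKM (SD, n = 2) in KC. In normal liver KC, HC, NPD, Thy1 cells and blood cells each overlapped the next in that order, and the biliary cells followed. In NPD Fth1 rose from 2129 and 1374 FPKM to 4736 and 3969 FPKM, by 1.34 on the log2 scale (SE 0.30, adjusted p = 0.0454), and NPD then had the highest mean of all populations. In HC it was at 2609, 1223, 1623 and 2730.1 FPKM and then at 1437, 1721, 2472 and 2228 FPKM, with a fitted difference of -0.01 (SE 0.31, adjusted p = 0.987) that turns positive, at 0.05, under upper-quartile scaling.

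In NPD other cell markers also moved. The duct markers summed to 3779 and 2569.6 FPKM and then 4682 and 3928 FPKM, the stellate cell markers to 3780.3 and 3255 FPKM and then 1273 and 1354 FPKM, and the Kupffer cell markers to 229 and 123 FPKM and then 26.7 and 18.9 FPKM. The Thy1 mesenchyme markers (Thy1, Gli1, Msln, Upk3b and Col15a1) summed to between 3793 and 4088 FPKM in normal NPD and between 2384 and 2814 FPKM in PH NPD. In normal Thy1 cells they summed to between 1336 and 2192 FPKM. The duct markers summed to between 14618 and 21508 FPKM in normal BEC, far above NPD. The part of these markers in the results of NPD was not tested. Without PH NPD library 1 the adjusted p was 0.284 for Tfrc and 0.382 for Fth1, and without PH library 2 it was 0.288 and 0.349. Without normal NPD library 2, 4 members passed.

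Whether a member responded to PH differently in different populations was tested with the 9 interaction terms of a fit of all 20 groups. The test passed for 5 of the 10 members: Hamp2, Trf, Slc40a1, Slc11a1 and Hmox1, where 47.8% of all genes tested passed. Hamp2 was at or near 0 outside HC, so no other population could show such a fall. For Trf the test includes populations whose normal libraries are all listed at 0. For both, the test cannot tell a difference of responses from missing estimates. It did not pass for Hamp (adjusted p = 0.345), Tfrc (0.118), Tfr2 (0.964), Fth1 (0.107) or Cp (0.0819). The plot of changes by population sets the members side by side.

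In HC the normal and PH libraries did not overlap for 2 of the 9 tested members, Hamp2 and Hmox1 (18.2% of all genes tested). The count was 3 of 6 in LSEC (18.8%), 4 of 7 in EC (29.5%), 3 of 6 in HSC (26.4%), 2 of 7 in cBEC (21%) and 4 of 7 in BEC (27.3%). In KC it was 4 of 6 (63.6%), in Thy1 cells 5 of 7 (53.2%), in blood cells 6 of 7 (85.2%) and in NPD 7 of 7 (64.5%). The median change of the tested members was 2.46 on the log2 scale in blood cells, against -0.31 over all genes, and 0.60 in KC, against -0.04. In HC it was -0.01, against -0.07 over all genes.

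**Figure D4:**
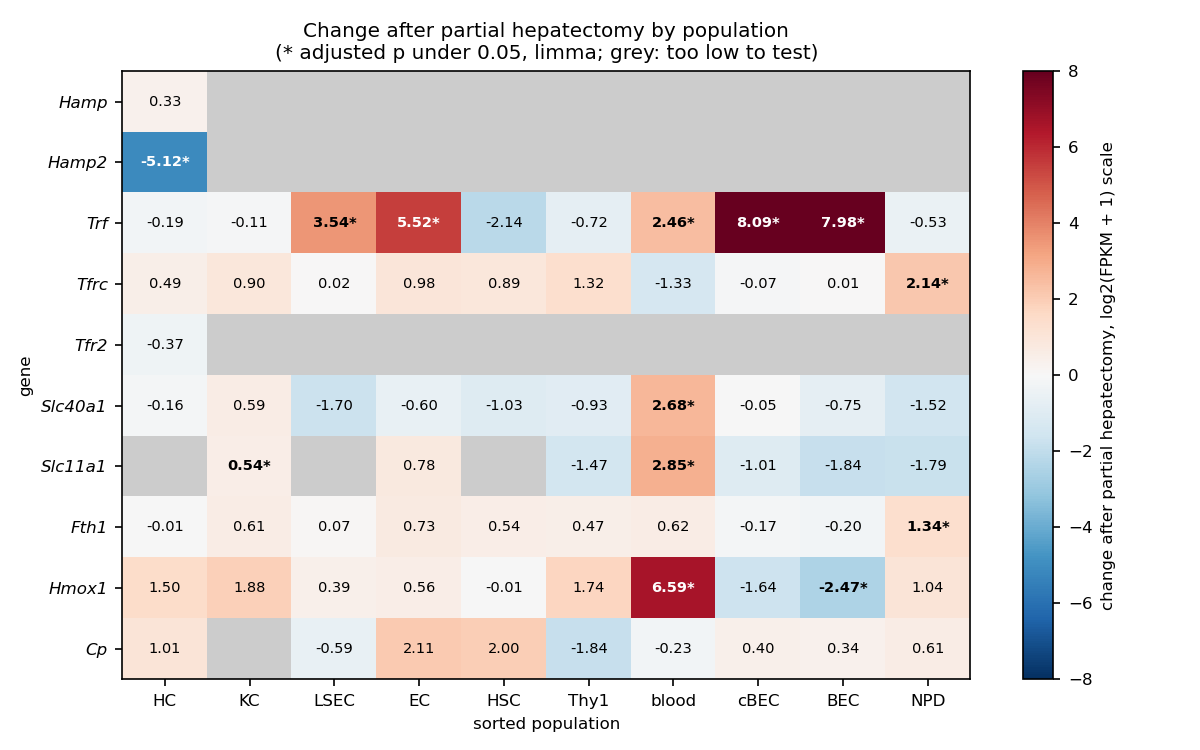
Change after partial hepatectomy of each gene (rows) in each population (columns), as a difference of log2(FPKM + 1), with red for higher and blue for lower, an asterisk for adjusted p under 0.05 and grey for genes too low to test. The Trf values in LSEC, EC, cBEC and BEC are set against normal libraries that are all listed at 0, and Hamp2 in HC is the lowest value, at -5.12.

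The other genes of the pathway were counted in 5 lists holding 69 genes of the table: control of hepcidin (24 genes), iron transport (15), iron storage and sensing (8), heme uptake and breakdown (13 of 15 listed) and heme synthesis (9). In HC 5 of 57 tested genes rose and 1 fell (1.78% and 4.41% of all genes), with a median change of -0.06 on the log2 scale against -0.07 over all genes. Hp (haptoglobin, which binds free hemoglobin) went from 2693, 2645, 2405 and 2731 FPKM to 9848, 15807, 18638 and 19997 FPKM and rose by 2.57 (SE 0.25, adjusted p = 0.00048). Hpx (hemopexin, which binds free heme) went from 8016, 5196, 4956 and 8431 FPKM to 18142, 21049, 25535 and 28817 FPKM and rose by 1.83 (adjusted p = 0.00349).

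The largest rise in HC was that of Lcn2, which binds iron-carrying siderophores and is induced in inflammation. It stood at 5.49, 7.4, 9.62 and 6.84 FPKM in normal and 4324, 5773, 4635 and 5619.6 FPKM in PH HC (9.27 on the log2 scale, adjusted p = 1.21e-08). Steap4, a metalloreductase, and Scara5, a ferritin receptor, rose by 2 and 1.85 on the log2 scale. Alas2, the heme synthesis enzyme best known from erythroid cells, fell from 143, 87.7, 85.5 and 137 FPKM to 33.7, 25.0, 50.1 and 52.7 FPKM (adjusted p = 0.0174). Without normal HC library 1 its adjusted p was 0.0571 and without normal library 4 it was 0.0502.

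Of the genes that control hepcidin, none of 19 tested passed in HC, and 3 had an unadjusted p under 0.05. Tmprss6, the protease that cleaves the BMP co-receptor hemojuvelin and so restrains hepcidin, was at 344, 218, 211 and 402 FPKM in normal and 69.7, 119, 185 and 182 FPKM in PH HC. All PH values were lower, by 1.12 on the log2 scale, with an adjusted p of 0.0998. Hemojuvelin itself (Hfe2) was at 62.0, 61.2, 57.2 and 60.2 FPKM and then at 33.0, 41.3, 55.4 and 54.1 FPKM, again without overlap (adjusted p = 0.295). Id1, a target of BMP signals, was at 2.48 to 5.48 FPKM in normal and 2.41 to 5.91 FPKM in PH HC, which overlap.

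The ligand Bmp6, a main inducer of hepcidin, fell in LSEC from 88.3, 117 and 58.5 FPKM to 19.3, 13.6, 24.4, 4.83 and 18.4 FPKM, by 2.48 on the log2 scale (SE 0.44, adjusted p = 0.012). Every PH library was below every normal one, and without normal LSEC library 1 the adjusted p was 0.0552, and with a replicate block it was 0.116. Bmp2, the other main BMP of the sinusoid, was at 454, 654 and 218 FPKM in normal and 213, 94.5, 297, 86.3 and 259 FPKM in PH LSEC, which overlap (adjusted p = 0.155). The 5 sinusoidal endothelial markers ran from 4461 to 8956 FPKM in normal and from 1313 to 4969 FPKM in PH LSEC. Their part in the results for Bmp6 and Bmp2 was not tested. In LSEC 2 of 54 tested list genes rose and Bmp6 was the one that fell (4.15% and 4.31% of all genes). Stat3, the transcription factor downstream of interleukin-6, was among those that rose (0.60 on the log2 scale, adjusted p = 0.0318, kept in 6 of 15 alternatives). Leaving out 1 LSEC library gave between 1 gene, without normal library 1, and 7 genes, without PH library 2.

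In KC 8 of 55 list genes rose and 18 fell (16.7% and 20.1% of all genes), with a median of -0.30 against -0.04 over all genes, and 13 of the 18 were among the 20 tested genes of hepcidin control. Bmp2 fell from 163 and 216 FPKM to 8.38, 5.63 and 19.5 FPKM, and Bmp6 from 29.0 and 54.2 FPKM to 0.913, 1.25 and 1.98 FPKM, each by 4.12 on the log2 scale. The sinusoidal endothelial markers, whose sums are given above, were also lower in the PH KC libraries, and their part was not tested. Steap3, a ferrireductase of endosomes, rose from 3.84 and 3.75 FPKM to 14.5, 13.6 and 13.6 FPKM. Ftl1, the ferritin light chain, rose from 1445 and 1467 FPKM to 2363, 1923 and 2721 FPKM (0.67 on the log2 scale, adjusted p = 0.0287), with an adjusted p of 0.160 without normal KC library 1, 0.142 without normal library 2 and 0.0874 without PH library 1. The count of 26 list genes in KC was 13 without normal library 1, 9 without normal library 2, 16 and 17 without PH library 1 or 2, and 36 without PH library 3.

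In blood cells 33 of 58 list genes rose and 11 fell (24.3% and 39.7% of all genes), with a median of 1.1 against -0.31 over all genes. Beside Hmox1, 9 of 12 genes of heme uptake and breakdown rose. Cd163, the macrophage receptor for haptoglobin and hemoglobin, went from 18.2 and 21.3 FPKM to 324 and 654 FPKM (adjusted p = 0.00127, and 0.0515 without normal blood library 1). Lrp1, the hemopexin receptor, went from 7.95 and 5.91 FPKM to 203 and 349.7 FPKM (adjusted p = 0.00086). The Kupffer cell and endothelial markers were also higher in the PH blood libraries, as given above, and their part was not tested. Hp fell from 74.7 and 62.3 FPKM to a listed 0 in both PH libraries, a 0 that needs the caution given above, since Hp is abundant in HC. The count of 44 was 12 without normal blood library 1 and 17 without normal library 2.

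The biliary populations had few changes among the lists, and Lcn2, as in blood cells, went to a listed 0. It was at 118, 173, 146 and 222 FPKM in normal cBEC and at 121, 174, 114 and 105 FPKM in normal BEC, and is listed at 0 in all 4 PH libraries of these populations (adjusted p = 1.66e-05 in cBEC and 5.07e-06 in BEC). In PH HC, as given above, Lcn2 stood at 4324 FPKM or more. In blood cells it went from 59.1 and 68.1 FPKM to a listed 0 in both PH libraries, and in KC it is listed at 0 in all 3. The caution on zeros of genes abundant in HC holds for all of these, and no fold is given. In cBEC, BEC and blood cells Lcn2 passed the filter on low values only through the normal libraries. The adjusted p-values there cannot tell a fall from a missing estimate in the PH libraries. Lcn2 was the only 1 of 59 tested list genes to pass in cBEC, where 0.0227% of all genes fell. In BEC 3 of 59 fell (1.57% of all genes), the others being Bmp2 and Id1. Leaving out 1 BEC library gave between 1 and 4 genes. Bmp2 did not pass without normal library 1 or 2 (adjusted p = 0.0501 and 0.0772) or without PH library 1 or 2 (0.258 and 0.317). Id1 did not pass without normal library 1 or 4 (adjusted p = 0.0723 and 0.0675) or without PH library 1 or 2 (0.238 and 0.272). The sinusoidal endothelial markers summed to 71.4, 273.6, 290.9 and 80.7 FPKM in normal BEC and to 0.536 and 3.87 FPKM in PH BEC, and their part was not tested.

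In NPD 9 of 63 list genes rose and 6 fell (9.65% and 5.51% of all genes). Il6, the cytokine that induces hepcidin, rose from 3.64 and 1.57 FPKM to 32.2 and 37.7 FPKM, by 3.38 on the log2 scale (adjusted p = 0.00962). Cd163 fell from 5.59 and 2.68 FPKM to 0.39 and 0.0624 FPKM (adjusted p = 0.0334), beside the Kupffer markers given above. The count of 15 was 0 without PH NPD library 1 or 2, and 24 and 26 without normal library 1 or 2. In EC, HSC and Thy1 cells no list gene passed with limma, of 60, 55 and 60 tested, while 15, 6 and 10 had an unadjusted p under 0.05. In a single fit of all 20 groups 12 passed in HSC and 5 in Thy1 cells.

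**Figure D5:**
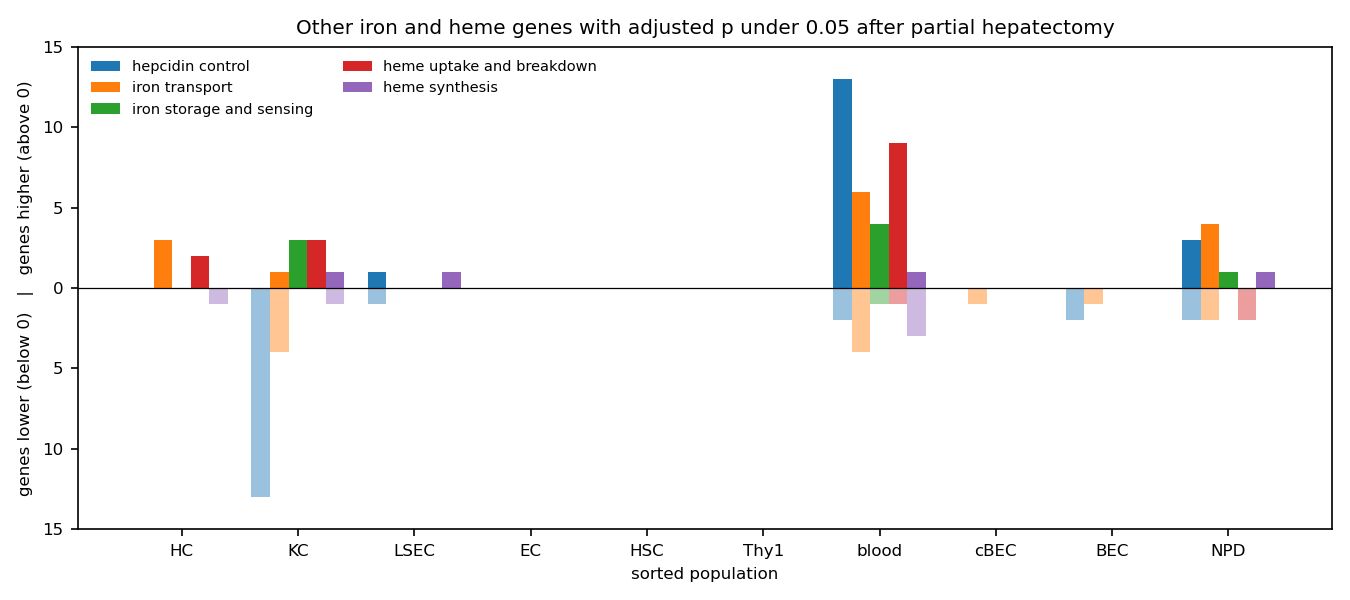
Number of genes of each of 5 iron and heme lists with an adjusted p under 0.05 after partial hepatectomy, by population (x axis), with genes that rose above 0 in full colour and genes that fell below 0 in pale colour. Blood cells have 33 that rose, Kupffer cells have 13 falls among the genes of hepcidin control, and EC, HSC and Thy1 cells have none.

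For each member the genes with the most similar pattern were sought by Pearson's r of log2 mean levels over the 20 groups, among 11697 genes. The groups of a population share a sort and the values share each library's composition, so these are descriptions. Hamp was nearest to Bbox1 (r = 0.968), Otc (0.966) and Fam47e (0.964). Hsd3b5 (0.972) and Hsd3b2 (0.965) were among the genes nearest to Hamp2, and both had their highest level in normal HC. Slc40a1 was nearest to Cd207 (0.936), Clec4n (0.929) and Pf4 (0.929), Slc11a1 to Siglece, Clec4a1 and Treml4 (0.995 each), and Hmox1 to Il18bp (0.964), Slc15a3 (0.941) and Cndp2 (0.931). Cp was nearest to Me1 (0.976), Pard3 (0.973) and Errfi1 (0.968). Tfrc was nearest to Eef1akmt1 (0.905), Umps (0.901) and Apex1 (0.898), and Fth1 to Akt2 (0.918), Tgm1 (0.866) and Cks1b (0.847). Trf was nearest to Lap3 (0.849), Pygl (0.839) and Cyp4v3 (0.830). Tfr2 was nearest to Mup11, Slc27a2 and Apoa2, and since it is listed at 0 outside HC only the contrast of HC with the rest enters.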

How the data were processed

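RNA was extracted with TRIzol from sorted cells and sequenced from standard Illumina libraries, per the labels. The deposited table has 36141 rows, 1 per RefSeq transcript, and 55 sample columns. Its unit is FPKM by the name the authors gave it, since the headers state none. CASAVA 1.8.2, Bowtie 1.0.0 and the build mm9 are named in the submitters' processing notes, without role or order. Table starts are counted from 0 and were raised by 1 for printing: 971 of 982 microRNA rows have the hairpin's length as end minus start. HC values carry 2 decimals, unlike the others. Read depth is unknown, so no counting interval is given.

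Titles gave the groups. For PH cBEC library 1 the tag says normal and the title PH, and the title was followed. Replicates of a group correlated at 0.919 to 0.996.

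Comparisons used limma 3.58.1 in R 4.3.3 (trend, robust, two-sided) on log2(FPKM + 1), which understates changes of low genes. PH was compared with normal liver within a population. A gene was tested with at least 1 FPKM in as many libraries as the smaller group has. All genes tested entered the Benjamini-Hochberg adjustment, with a threshold of 0.05. The fits were checked on simulated data. As alternatives, the fits were repeated with quantile normalization, with upper-quartile scaling, with a pseudocount of 0.1, without the filter, with the mean over a symbol's rows, with a block on the replicate number, in a single fit of all 20 groups (PH against normal) and leaving out each library. For the gene lists they were added after the data were seen.

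The members and lists were chosen with earlier results of these data known. All members are named. From the lists, the rule names the largest rise and fall that passed in each population, and other list genes, the difference of Hamp and Hamp2 and the counts of zeros were chosen after their values were seen. Likeness was computed among genes reaching a mean of 10 FPKM in some group, naming 3 genes per member without predicted genes, small RNAs and pseudogenes. Some genes that these rules name are not reported here. Promoter sequences are RefSeq's for GRCm38.p6 (7 of 10 members matched) and transcripts are GENCODE's. Figures were drawn with matplotlib 3.10.9 in Python 3.11.15.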

Additional observations from a re-analysis of the deposited data

Results flagged for a closer look

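Tfrc in normal cBEC library 1, at 34.9 FPKM, lay farther from the other 3 libraries of its group than Dixon's 95% limit allows. It was the only such library among 40 groups examined, where chance gives about 2. The limit was applied to log2(FPKM + 1), in groups of at least 4 libraries that are not all at 0. Hamp2 in PH HC, with a highest value of 9.91 FPKM and a median of 1.15 FPKM, stayed within the limit on that scale. Smaller groups, such as PH KC, were not examined.

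The moderated F test of limma on 9 interaction terms asked whether responses to PH differed between populations. It passed for Hamp2 (adjusted p = 8.06e-13), Trf (adjusted p = 9.02e-11), Hmox1 (adjusted p = 4.05e-09), Slc40a1 (adjusted p = 8.29e-05) and Slc11a1 (adjusted p = 0.000349). For Hamp2 the population with a fall is HC, the only one where it passed the filter on low values. For Trf the difference includes populations in which all normal libraries are listed at 0. For the other 3, blood cells hold the largest rise, beside the change of Kupffer cell, endothelial and lymphocyte markers given with that result.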

How the results depend on the processing

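The count of members that passed, PH against normal, moved by over 1.5 times in these cases. With a single fit of all 20 groups it was 2 in HC (with Hmox1) and 2 in LSEC (with Slc40a1). With no filter it was 0 in EC, 1 in BEC and 0 in NPD. With quantile normalization it was 0 in KC, 0 in EC and 1 in BEC, and with upper-quartile scaling 0 in EC and 1 in BEC. Same-numbered libraries did not consistently deviate together (23 pairs, r from -0.65 to 0.49, 5 of them over 0.1), so the numbers were not used to pair the samples. In Thy1 cells, blood cells and NPD both pairs give the same r by construction, and the check cannot exclude pairing. With a replicate block the count was 4 in KC, 0 in LSEC, 0 in EC, 2 in Thy1 cells and 5 in NPD. Leaving out 1 library gave 0 to 4 in KC, 1 to 2 in LSEC, 0 to 1 in EC, 2 to 5 in blood cells, 1 to 3 in BEC and 0 to 4 in NPD. The lone library left in a group of 2 is then assumed to vary like the others. Smaller moves were 5 in blood cells and 3 in NPD with upper-quartile scaling, 3 in NPD with quantile normalization, and 3 in BEC with a pseudocount of 0.1 or a replicate block. The cause of these changes was not tested. The count of list genes that passed, over the alternatives that kept every library, was 6 to 10 in HC, 20 to 35 in KC, 0 to 7 in LSEC, 0 in EC, 0 to 12 in HSC, 0 to 5 in Thy1 cells, 41 to 45 in blood cells, 1 to 4 in cBEC, 1 to 8 in BEC and 4 to 18 in NPD. The counts of the F tests and of the comparisons between populations moved by no more than 1.5 times under the alternatives run. Hamp2 in HC passed in 15 of 15 alternatives and Trf in LSEC in 14 of 15. Slc11a1 in KC passed in 6 of 12, Trf in EC in 4 of 12, Hmox1 in BEC in 5 of 13, and Tfrc and Fth1 in NPD in 8 of 11 each. No member or named list gene that passed changed direction under any alternative. The median of all genes moved in blood cells from -0.31 to -0.12 with upper-quartile scaling and -0.14 with quantile normalization, and with quantile normalization from -0.11 to 0.05 in cBEC, -0.12 to 0.03 in BEC, -0.04 to 0.09 in KC and 0.09 to -0.02 in NPD. Signs under scaling flipped only for members that did not pass: Fth1 in HC and LSEC, Tfrc in LSEC and cBEC and Slc40a1 in cBEC. Groups of 2 libraries and the unknown read depth limit all low values.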
